A study of Homo sapiens with 6 samples.

Results

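The levels of 6 genes of DNA mismatch repair, MSH6, MSH3, PMS2, PMS1, MLH3 and EXO1, were followed in HCT116, an established human colorectal carcinoma line, with and without irinotecan. The genes were taken by name from a table of 30560 genes; each had 1 row, and all 6 averaged at least 10 normalized counts, the minimum set for the test. The control group was 3 RNA sequencing libraries from cells given DMSO, the solvent, and the treated group was 3 libraries from cells given irinotecan (CPT-11) at 10 µM for 48 hours. Irinotecan is a prodrug whose metabolite holds topoisomerase I in its complex with DNA. All 6 libraries carry the genotype label WT, so no group lacks a gene by design, and the time in DMSO is not stated apart from that of the drug.

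Mismatch repair removes wrongly paired bases and small loops that DNA polymerases leave behind. MutS proteins find the fault: the dimer that contains MSH6 binds base mismatches and short loops, and the dimer that contains MSH3 binds larger loops. MutL proteins, among them PMS2, PMS1 and MLH3, are then recruited, and PMS2 nicks the new strand. EXO1 digests the strand from the nick, and DNA polymerase fills the gap with the sliding clamp PCNA, its loader RFC, the single-strand binder RPA and the ligase LIG1. HCT116 is known as a mismatch-repair-deficient line with unstable microsatellites and is described as carrying a frameshift in MSH3. Repair activity, protein and mutations were not measured here, so the deficiency is background and the values below are transcript levels only.

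After CPT-11, 3 of the 6 genes fell, 1 rose and 2 did not pass the test. MSH6 fell 2.50-fold, EXO1 fell 2.21-fold and PMS1 fell 1.3-fold, while PMS2 rose 1.48-fold. MLH3 was at 387 ± 50.7 normalized counts in controls and 471 ± 76.5 after CPT-11, and MSH3 was at 84.6 ± 13.1 and 67.1 ± 5.90 (SD, n = 3 each). A normalized count is the number of reads over 1 size factor for the library, and the test was limma on log2(normalized count + 1) with Benjamini-Hochberg adjustment over 16239 tested genes, called at an adjusted p below 0.05. Over all tested genes 49.4% were called, 25.1% lower and 24.3% higher, so 4 called genes of 6 is not read as a property of the group. The 2 groups did not overlap for 4 of the 6 genes, against 56.6% of all tested genes. A fall of at least 2-fold, as in MSH6 and EXO1, was called in 7.43% of tested genes. Separate cultures are not named in the labels, so the p-values rest on a spread between libraries that may be technical. In bulk RNA, fewer cells that express a gene and less of its RNA per cell cannot be told apart.

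**Figure D1:**
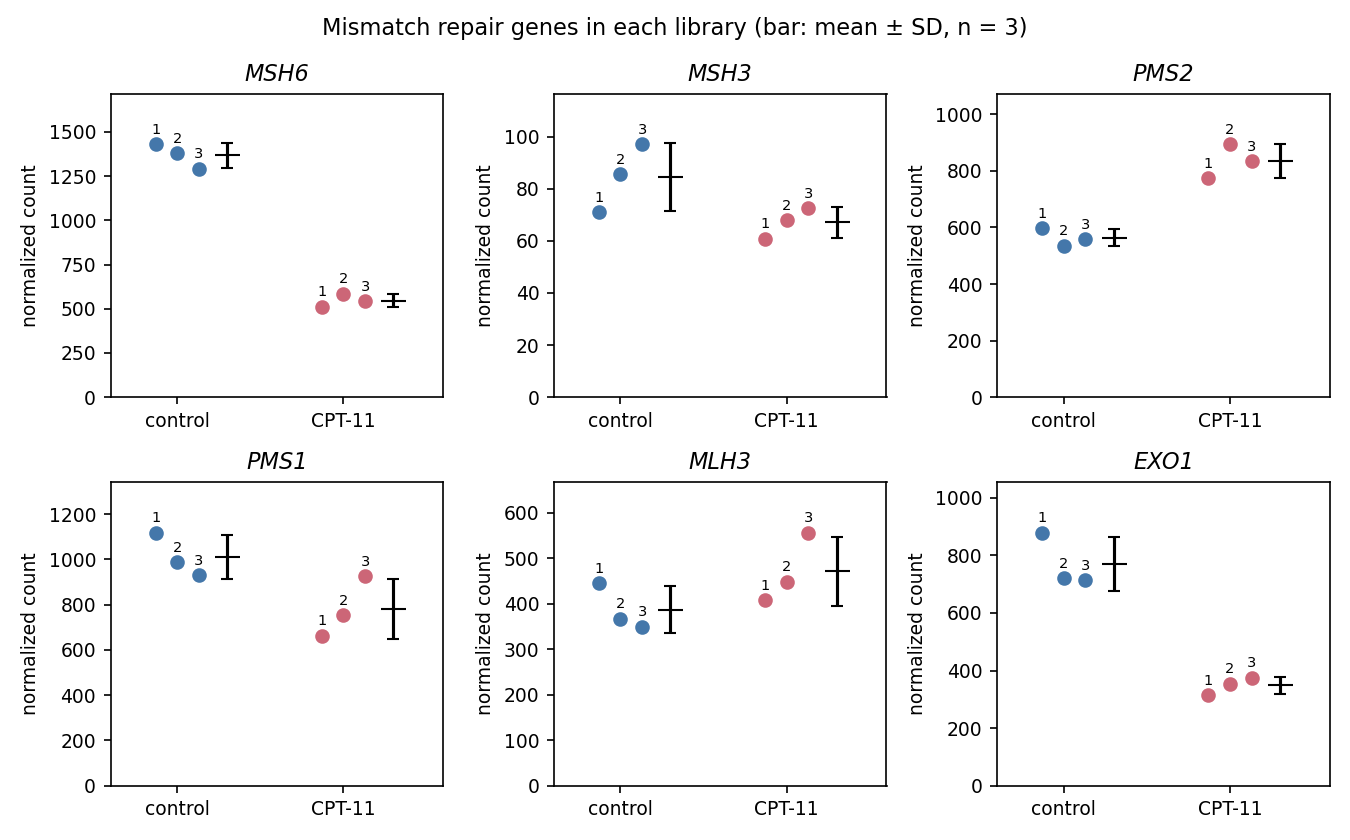
Normalized counts of the 6 mismatch repair genes in each of the 6 libraries (points, linear axis from 0, numbered by replicate), with the mean and SD of each group of 3 beside them. MSH6 lay between 1291 and 1431 in controls and between 511 and 586 after CPT-11, PMS2 moved the other way, and the groups overlapped for MLH3 and MSH3.

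Libraries held 15398464 to 18031195 reads on genes. Mitochondrial genes took 6.84% to 7.45% of reads in controls and 9.70% to 10.9% after CPT-11. The library numbered 1 stood apart in both groups: the chi-square per degree of freedom between libraries was 8.0 to 11.5 for pairs with it and 3.19 to 3.86 for the other pairs. Of 8 colon epithelial markers 6 had a row, and their summed normalized counts ran from 42222 to 45548 in controls and from 76574 to 82499 after CPT-11. KRT8 (means of 28235 and 53996) and KRT18 (9527 and 19197) carried most of that sum. Of the 5 epithelial markers tested, 4 were called higher, these keratins among them, and EPCAM did not pass the test (3871 and 3744). VIL1 was near 0 (means of 2.26 and 5.56) and fell below the minimum for the test. Of 5 leukocyte markers 3 had a row, as did 3 of 5 fibroblast markers and 3 of 3 endothelial markers. Leukocyte markers summed to at most 13.9, endothelial markers to at most 24.5, and fibroblast markers to 533 to 654 in controls and 934 to 1251 after CPT-11, nearly all of it COL1A1 with LUM at or near 0. The part of these shifts in the results was not tested.

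The start of each gene was taken as the RefSeq (GRCh38.p14) start nearest to that of its principal transcript, the annotation's main coding transcript. For MSH6 that transcript starts at 47783082, well inside the annotated gene, which begins at 47695530. The stretch around each start, 250 bases before to 50 bases after, was read from RefSeq, which held all 6 genes. It is shown for the 3 genes that passed the test and whose window holds 1 of the E2F octamers TTTCCCGC, TTTCGCGC, TTTGCCGC and TTTGGCGC, since E2F factors are known to drive genes of DNA replication and repair. These octamers were searched on both strands, and 3.31% of 35116 RefSeq promoter windows of the same length held at least 1. Capitals mark the E2F octamers and the CCAAT box (the letters CCAAT on either strand, present in 34.6% of windows).
MSH6, chr2:47782895-47783194, plus strand: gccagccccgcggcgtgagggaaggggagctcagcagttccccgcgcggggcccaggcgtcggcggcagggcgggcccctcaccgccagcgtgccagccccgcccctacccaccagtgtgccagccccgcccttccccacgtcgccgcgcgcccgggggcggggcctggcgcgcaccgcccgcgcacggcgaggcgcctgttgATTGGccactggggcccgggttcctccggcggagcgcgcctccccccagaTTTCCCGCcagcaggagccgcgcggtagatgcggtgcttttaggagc
EXO1, chr1:241847954-241848253, plus strand: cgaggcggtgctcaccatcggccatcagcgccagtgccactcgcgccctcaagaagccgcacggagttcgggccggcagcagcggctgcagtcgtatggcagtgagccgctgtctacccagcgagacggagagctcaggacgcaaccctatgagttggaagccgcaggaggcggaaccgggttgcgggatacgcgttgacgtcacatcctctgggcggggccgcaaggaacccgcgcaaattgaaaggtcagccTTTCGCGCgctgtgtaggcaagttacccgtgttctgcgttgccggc
PMS2, chr7:6009057-6009356, minus strand: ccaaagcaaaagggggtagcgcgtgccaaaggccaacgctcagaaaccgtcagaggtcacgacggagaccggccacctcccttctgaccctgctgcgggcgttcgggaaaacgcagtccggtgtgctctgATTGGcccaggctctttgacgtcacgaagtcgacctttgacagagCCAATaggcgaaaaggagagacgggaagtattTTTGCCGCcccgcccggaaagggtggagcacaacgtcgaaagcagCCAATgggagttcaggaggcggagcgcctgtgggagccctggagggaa
The octamer began at base 254 of the window in MSH6, 255 in EXO1 and 208 in PMS2. MSH6 had 1 CCAAT box and PMS2 had 3. The windows of PMS1 and MLH3 held no such octamer; that of PMS1 held 2 CCAAT boxes and that of MLH3 held none. The window of MSH3, not shown, also held the octamer, although MSH3 did not pass the test. The cell cycle homology motif, TTTGAA or TTCGAA on either strand, stood in 16.4% of all windows and in none of these. GC content was 78.0% in MSH6, 65.0% in EXO1 and 60.7% in PMS2, against a median of 58.7% over all windows. The 3 genes shown did not move together, since MSH6 and EXO1 fell and PMS2 rose. A match is a description of letters and not of binding.

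MSH6 (ENSG00000116062, GRCh38 chr2:47695530-47810101, plus strand) had the largest change of the 6 genes. Its normalized counts were 1431, 1380 and 1291 in controls 1 to 3 and 511, 586 and 543 in CPT-11 libraries 1 to 3. Every treated library was below every control. The means were 1367 ± 70.9 and 547 ± 37.3 (SD, n = 3), a log2 fold change of -1.32 (SE 0.10, 95% interval -1.53 to -1.11, limma adjusted p = 7.44e-09). MSH6 carries the mismatch reader of the main MutS dimer. Its 3′ end overlaps that of FBXO11, a ubiquitin ligase gene on the other strand, over 1785 exonic bases, 16.2% of the exonic length of MSH6. FBXO11 also fell, with means of 785 ± 15.6 and 452 ± 61.3 normalized counts (SD, n = 3; log2 fold change -0.80, SE 0.11, limma adjusted p = 1.62e-05). No source states whether counting used strand, so the origin of reads on the shared bases cannot be told apart.

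MSH3 (ENSG00000113318, chr5:80654648-80876460, plus strand), the loop-binding MutS protein, was the lowest of the 6 genes. It had 71.0, 85.6 and 97.1 normalized counts in controls and 60.8, 67.9 and 72.6 after CPT-11, from 67 to 103 reads per library. The groups overlapped, since CPT-11 library 3 was above control 1. The log2 fold change was -0.32 (SE 0.20, limma adjusted p = 0.195), with a 95% interval from -0.74 to 0.10. That interval holds both no change and a fall of the size seen in PMS1, so at this depth the 2 cannot be told apart.

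The balance between the MSH6 and MSH3 transcripts was compared within libraries, where size factors cancel but reads on bases shared with other genes do not. Exons of other genes cover 23.9% of the principal transcript of MSH6 and 7.75% of that of MSH3. The part of these bases in the ratio was not tested. Per kilobase of exonic sequence, MSH6 was at 7.08 ± 1.48 times the level of MSH3 in controls and at 3.50 ± 0.26 times after CPT-11 (SD, n = 3). With the length of the principal transcript instead, the ratios were 9.04 ± 1.89 and 4.47 ± 0.33. The lowest control ratio, 5.69 per exonic kilobase, was above the highest treated ratio, 3.70. On the log2 scale the ratio of normalized counts fell by 1.0 (exact permutation test, two-sided, p = 0.1, the smallest that 3 against 3 allows; adjusted p = 0.2 over 4 ratios). This test cannot pass a threshold of 0.05 with 3 libraries a group.

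PMS2 (ENSG00000122512, chr7:5973239-6009125, minus strand), the MutL protein that cuts the new strand, was the 1 gene that rose. Normalized counts were 598, 536 and 558 in controls and 773, 895 and 835 after CPT-11. Every treated library was above every control. The means were 564 ± 31.4 and 834 ± 60.7 (SD, n = 3), a log2 fold change of 0.56 (SE 0.10, 95% interval 0.34 to 0.78, limma adjusted p = 0.000215).

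The value of PMS2 is less certain than its error says, since chromosome 7 holds partial copies of the gene. Of the 50-base windows of its principal transcript, 34.1% also occur in transcripts of other genes, and 17.4% of its 100-base windows do. Most of them lie in the pseudogene PMS2CL (chr7:6710128-6753862, plus strand), with 809 shared windows of 50 bases. No source states how reads that fit several places were treated. PMS2CL had 398, 340 and 364 normalized counts in controls and 533, 484 and 461 after CPT-11, again with no overlap. It rose by 0.42 on the log2 scale (SE 0.12, limma adjusted p = 0.00576). The table lists 10 pseudogene rows named after PMS2, of which 5 passed the filter. Besides PMS2CL, PMS2P10 was called higher (log2 fold change 1.18, SE 0.46, limma adjusted p = 0.0419), on 6 to 33 reads per library and with overlapping groups. Its call was lost without CPT-11 library 1 (adjusted p = 0.146), CPT-11 library 3 (0.168), control 1 (0.0969), control 2 (0.0788) or both libraries numbered 1 (0.288). PMS2P1, PMS2P3 and PMS2P4 did not pass the test. PMS2 held 47.7% to 50.1% of the summed normalized counts of itself and the 10 copies in controls and 48.7% to 54.7% after CPT-11.

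PMS1 (ENSG00000064933, chr2:189784085-189877629, plus strand) encodes a MutL protein whose role in human repair is less clear. Its normalized counts were 1118, 988 and 929 in controls and 662, 753 and 927 after CPT-11. The groups were separate only by the gap between 928.8 in control 3 and 926.5 in CPT-11 library 3. The means were 1011 ± 96.8 and 780 ± 134 (SD, n = 3), a log2 fold change of -0.38 (SE 0.12, 95% interval -0.64 to -0.13, limma adjusted p = 0.0138). The call was lost without CPT-11 library 1 (-0.27, adjusted p = 0.0610), without CPT-11 library 2 (-0.36, adjusted p = 0.0531), and without both libraries numbered 1 (-0.20, adjusted p = 0.0848), over alternatives whose adjusted p ran from 0.00210 to 0.0848.

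MLH3 (ENSG00000119684, chr14:75013764-75051532, minus strand), the MutL endonuclease best known from meiotic crossing over, had 445, 367 and 350 normalized counts in controls and 408, 449 and 556 after CPT-11. Control 1 was above CPT-11 library 1, so the groups overlapped. The log2 fold change was 0.28 (SE 0.13, 95% interval -0.01 to 0.56, limma adjusted p = 0.0971). The call depended on the libraries numbered 1: the gene passed as higher without control 1 (0.38, adjusted p = 0.0141), without CPT-11 library 1 (0.37, adjusted p = 0.0334) and without both (0.48, adjusted p = 0.00178). It also passed when libraries were scaled to totals without mitochondrial genes (0.36, adjusted p = 0.0352). Over all its alternatives the adjusted p ran from 0.00178 to 0.417.

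Among the MutL genes, the order of PMS2 and PMS1 per kilobase turned, within the limit that shared sequence sets on the PMS2 value. Per kilobase of exonic sequence PMS2 was at 0.775 ± 0.050 times the level of PMS1 in controls and at 1.5 ± 0.22 times after CPT-11 (SD, n = 3). Per kilobase of principal transcript the ratios were 0.632 ± 0.041 and 1.23 ± 0.18. In CPT-11 library 3 the ratio with that length was only 1.02, and without a length PMS2 stayed below PMS1 there (835 and 927 normalized counts). On the log2 scale the ratio of normalized counts went from -0.84 ± 0.09 to 0.11 ± 0.22, a difference of 0.95, and the libraries did not overlap (exact permutation test, two-sided, p = 0.1, the smallest possible; adjusted p = 0.2 over 4 ratios). The ratio of PMS2 to MLH3 went from 0.55 ± 0.12 to 0.83 ± 0.22 on the same scale and overlapped between groups (exact permutation test, p = 0.2).

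EXO1 (ENSG00000174371, chr1:241847967-241895148, plus strand), the exonuclease that removes the faulty strand, fell almost as far as MSH6. It had 879, 720 and 714 normalized counts in controls and 315, 355 and 375 after CPT-11. Every treated library was below every control. The means were 771 ± 93.6 and 348 ± 30.8 (SD, n = 3), a log2 fold change of -1.14 (SE 0.12, 95% interval -1.39 to -0.89, limma adjusted p = 4.08e-07). The ratio of EXO1 to MSH6 differed by 0.18 on the log2 scale between groups that overlapped (exact permutation test, two-sided, p = 0.2). EXO1 shares no exonic base with another annotated gene, and no 50-base window of its principal transcript occurs in annotated transcripts of other genes. The rest of the genome was not searched.

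The authors' deposited table gives the same calls at an adjusted p of 0.05. Its log2 fold changes are -1.32 for MSH6, -1.15 for EXO1, -0.38 for PMS1 and 0.56 for PMS2, with adjusted p-values of 1.87e-33, 2.21e-16, 0.0161 and 6.77e-06. In the authors' deposited table MLH3 has 0.28 with an adjusted p of 0.158, and MSH3 has -0.34 with 0.379.

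Levels of different genes can be compared only per length. In controls, normalized counts per kilobase of exonic sequence were 186 ± 22.6 for EXO1, 185 ± 17.8 for PMS1, 143 ± 7.98 for PMS2, 124 ± 6.45 for MSH6, 46.3 ± 6.07 for MLH3 and 18.0 ± 2.78 for MSH3 (SD, n = 3). EXO1 and PMS1 overlapped, and the other neighbours in that order did not. Among 13215 tested protein-coding genes, whose median was 100.3 per kilobase, MSH3 stood at percentile 16.8, MLH3 at 30.4, MSH6 at 56.8, PMS2 at 60.9 and both PMS1 and EXO1 at 69.1. After CPT-11 the order was PMS2 at 212, PMS1 at 143, EXO1 at 84.1, MLH3 at 56.3, MSH6 at 49.7 and MSH3 at 14.2 per kilobase, with MLH3 and MSH6 overlapping. The order rests in part on the length chosen: per kilobase of principal transcript PMS1 led in controls with 314 ± 30.03, ahead of EXO1 at 222, PMS2 at 198 and MSH6 at 183, and neighbours among the last 3 overlapped. MSH3 was lowest and PMS2 led after CPT-11 with either length, though with the principal transcript PMS2 and PMS1 overlapped. The order of MSH6 and MLH3 after CPT-11 turned with the length, since per kilobase of principal transcript MSH6 was at 73.1 and MLH3 at 59.7, again overlapping.

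**Figure D2:**
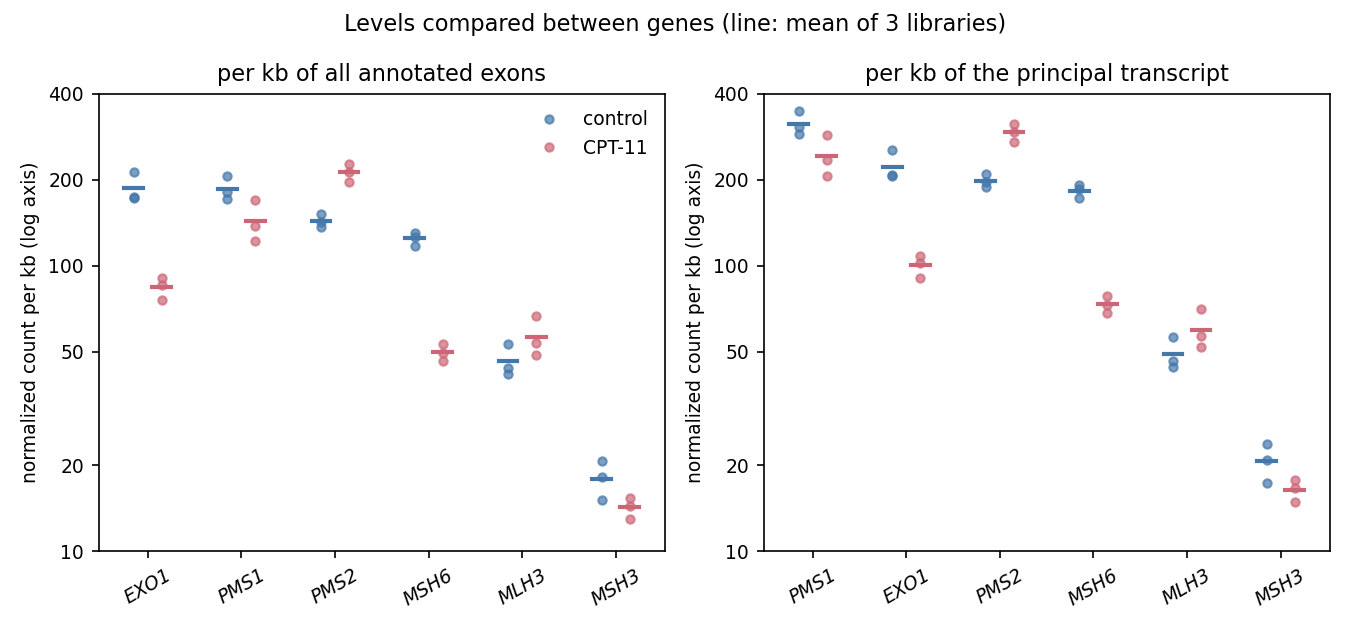
Normalized counts per kilobase (log axis) of all annotated exons (left) and of the principal transcript (right) for the 6 genes in controls and after CPT-11. Points are libraries and lines the mean of 3; PMS2 had the highest mean after CPT-11 in both panels, going from 143 to 212 per kilobase of exons, and MSH6 passed below MLH3 only in the left panel, where the 2 overlap.

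PMS1 and PMS2 begin beside a protein-coding gene that runs the other way: ORMDL1 rose where PMS1 fell, and AIMP2 and PMS2 both rose. PMS1 starts 286 bases from ORMDL1, a regulator of sphingolipid synthesis, with 103 shared exonic bases. ORMDL1 had 704, 582 and 585 normalized counts in controls and 709, 729 and 851 after CPT-11. It was called higher, by 0.29 on the log2 scale (SE 0.11, limma adjusted p = 0.0404), a call that held in 12 of 18 alternatives with a test. It was lost without CPT-11 library 2 (adjusted p = 0.0692), CPT-11 library 3 (0.193), control 2 (0.143) or control 3 (0.143). The log2 ratio of PMS1 to ORMDL1 differed by -0.68 between groups without overlap (exact permutation test, two-sided, p = 0.1, the smallest possible; adjusted p = 0.15 over 3 such ratios). PMS2 starts 120 bases from AIMP2, a scaffold of the tRNA synthetase complex, which rose, with means of 387 ± 50.5 and 708 ± 34.8 normalized counts (SD, n = 3; log2 difference 0.88, SE 0.12, limma adjusted p = 7.04e-06). AIMP2 shares 28.9% of its exonic bases with EIF2AK1. The PMS2 to AIMP2 ratio overlapped between groups (difference -0.32 on the log2 scale, exact permutation test, p = 0.2).

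**Figure D3:**
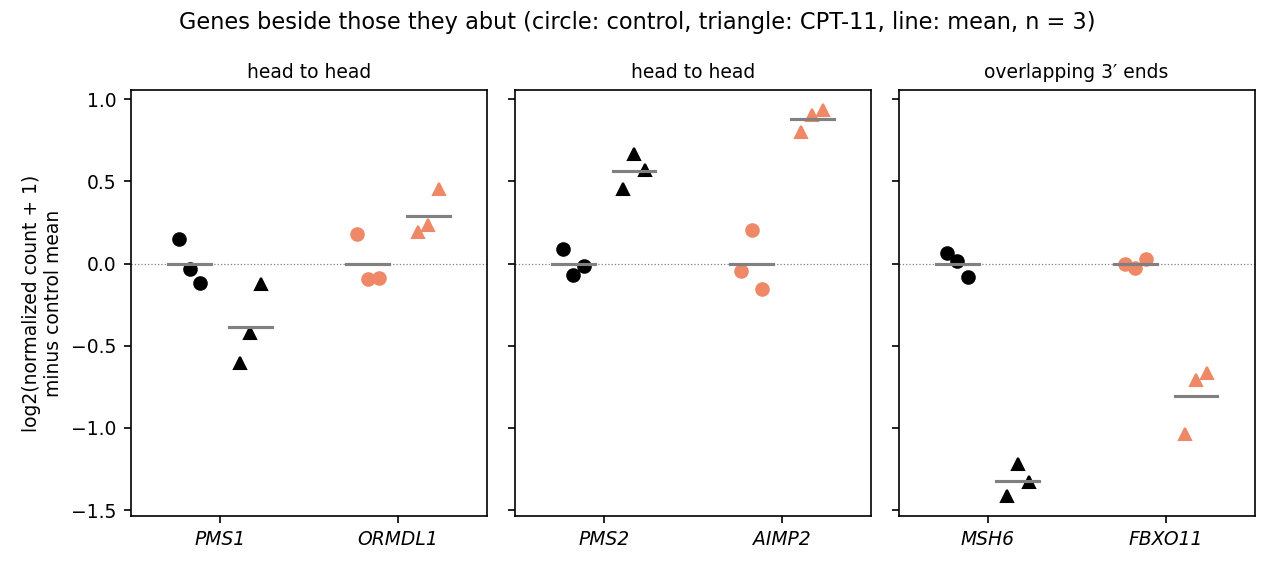
Each library's distance from the control mean on the log2(normalized count + 1) scale, for PMS1 and PMS2 beside the gene that starts next to them and for MSH6 beside FBXO11 (circles are controls, triangles CPT-11, lines the mean of 3). PMS1 fell and ORMDL1 rose, and PMS2 and AIMP2 both rose, and MSH6 and FBXO11 both fell.

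Most genes that fill and seal the gap fell, while the clamp rose. Of 18 resynthesis partners (PCNA, RFC, RPA and polymerase delta and epsilon subunits, LIG1), all tested, 15 fell, 2 rose and 1 did not pass, with a median log2 fold change of -0.88 against 0.01 over all tested genes, of which 25.1% fell. The number that fell ran from 14 to 15 over the alternatives. POLE4, 1 of those that fell (limma adjusted p = 0.0280), passed in 11 of 18 alternatives with a test. RFC4, a clamp loader subunit, fell by 1.74 on the log2 scale (SE 0.11), with means of 1093 and 327 normalized counts. RFC5 fell by 1.37 and POLD3, a polymerase delta subunit, by 1.36 on the log2 scale. PCNA had 4959, 4900 and 4745 normalized counts in controls and 7750, 9003 and 8314 after CPT-11, with every treated library above every control. It rose by 0.78 on the log2 scale (SE 0.08, limma adjusted p = 6.84e-07); it is also known as a p53 target. The other riser, POLD4, rose by 0.78 as well, and shares 21.3% of its exonic bases with AP003419.1. POLE3 was the partner that did not pass (log2 fold change -0.04, adjusted p = 0.732). POLD4 and POLE3 were named after their values were seen.

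Of 13 helicases, nucleases and other genes tied to mismatch repair, 11 fell, 1 rose and 1 did not pass, against 25.1% lower and 24.3% higher over all tested genes, with a median log2 fold change of -0.74 against 0.01. BRIP1, a helicase also known from interstrand crosslink repair, had means of 950 and 274 normalized counts and fell by 1.80 on the log2 scale (SE 0.12). HMGB1, which bends DNA and takes part in strand excision in reconstituted repair, fell by 1.46. RNASEH2A, which removes ribonucleotides from DNA, fell by 2.20 (SE 0.39) on only 5 to 40 reads per library, and 30.8% of its exonic bases are shared with THSD8. The riser was FAN1, a nuclease also known from crosslink repair (0.34, SE 0.11, limma adjusted p = 0.0211), which shares 24.3% of its exonic bases with MTMR10. ERCC5, which shares 63.2% of its exonic bases with neighbours, did not pass (0.41, adjusted p = 0.213). FAN1 no longer passed without CPT-11 library 2 (adjusted p = 0.165) or control 3 (0.0773), and ERCC5 passed as higher without CPT-11 library 3 (0.70, adjusted p = 0.0320). The rows outside the fall in both lists were thus PCNA, POLD4, FAN1, POLE3 and ERCC5.

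Enzymes that act on single faulty bases were called about as often as all tested genes. Of 12, the DNA glycosylases and MGMT, 3 rose, 3 fell and 6 did not pass, against 24.3% higher and 25.1% lower over all tested genes, with a median log2 fold change of 0.03 against 0.01. NEIL3, a glycosylase of replicating cells, fell by 1.74, UNG, which removes uracil, fell by 0.95, and MGMT, which strips alkyl groups from guanine, fell by 0.76 on the log2 scale. TDG, SMUG1 and MPG rose by 0.55, 0.59 and 0.56; they were named after their values were seen. MPG no longer passed without both libraries numbered 1 (0.26, adjusted p = 0.0894), and it shares 27.3% of its exonic bases with NPRL3. The meiotic MutS homologs went opposite ways. MSH4 rose by 0.94 on the log2 scale, with means of 53.8 and 105 normalized counts (SE 0.21, limma adjusted p = 0.00134), and MSH5 fell from 309 to 175 (-0.84, SE 0.16, limma adjusted p = 0.000375), with 47.3% of its exonic bases shared with a readthrough gene and SAPCD1.

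**Figure D4:**
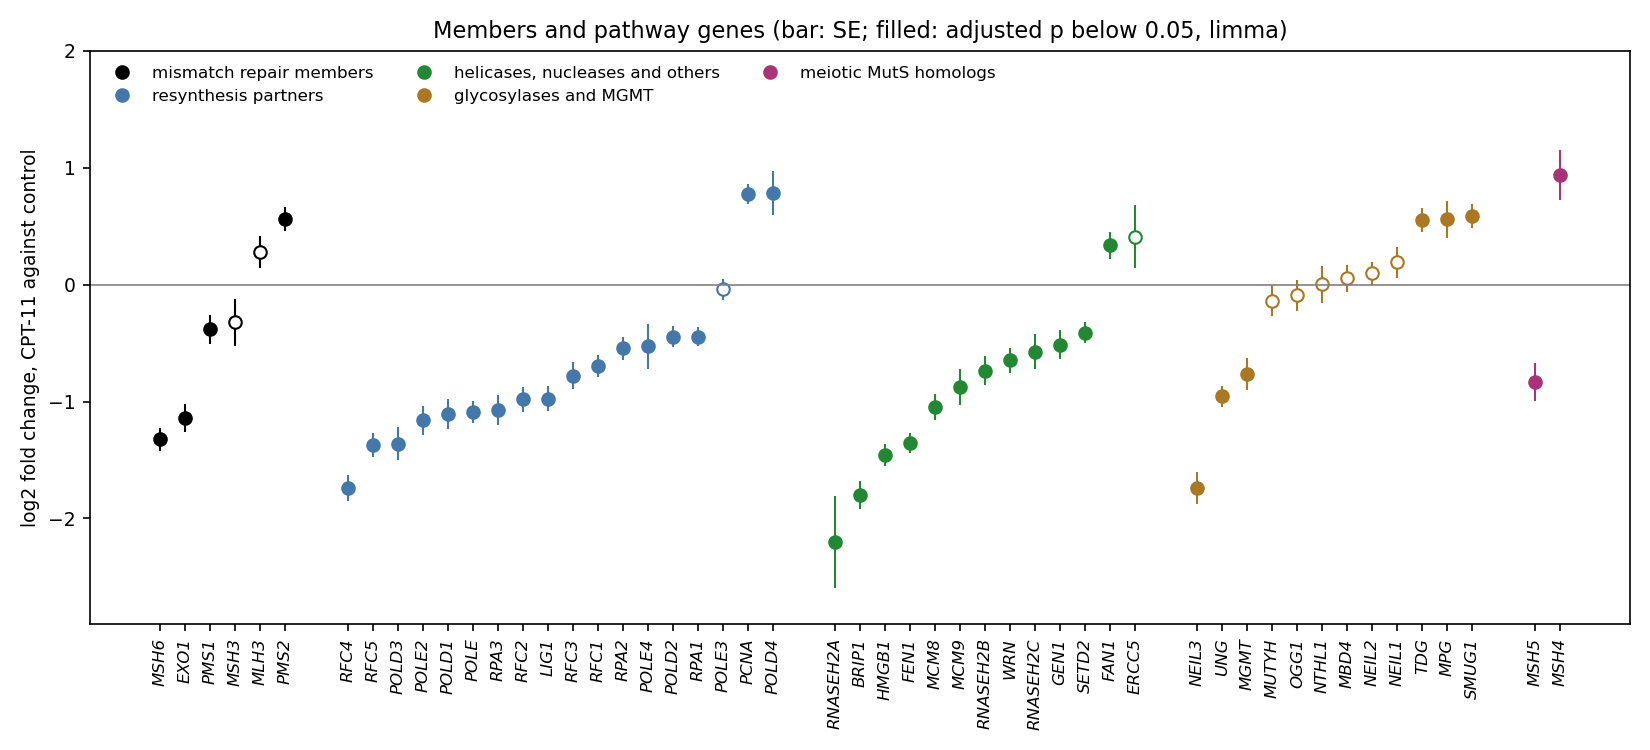
Log2 fold change (CPT-11 against control, with SE) of the 6 genes and of the 4 lists; filled points passed the limma test at an adjusted p below 0.05. Of 18 resynthesis partners 15 fell, PCNA and POLD4 rose, and the glycosylases lay on both sides of 0.

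Across the 13215 tested protein-coding genes, those with a long genomic span were lower after CPT-11, so each gene was also set against genes of its own span. The smoothed trend was -0.60 on the log2 scale at the 221.8 kb of MSH3, whose own -0.32 is then 0.28 above the trend; the 645 genes of like span had a median of -0.55. The direction of the MSH3 value therefore depends on that reference. MSH6 spans 114.6 kb as annotated, where the trend was -0.24, and remained at -1.08 after it was subtracted; only 3.63% of 1239 genes of like span were lower. Its principal transcript spans 27.02 kb, where the trend was 0.11 and the remainder -1.43. EXO1, with a trend of 0.02, remained at -1.16, and 3.97% of 1814 genes of like span were lower. PMS1 stood at -0.22, PMS2 at 0.50 and MLH3 at 0.22 after the trend was taken off. The resynthesis partners kept a median of -0.80, and the helicase and nuclease list of -0.61. MGMT, which spans 300.8 kb, went from -0.76 to 0.06.

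**Figure D5:**
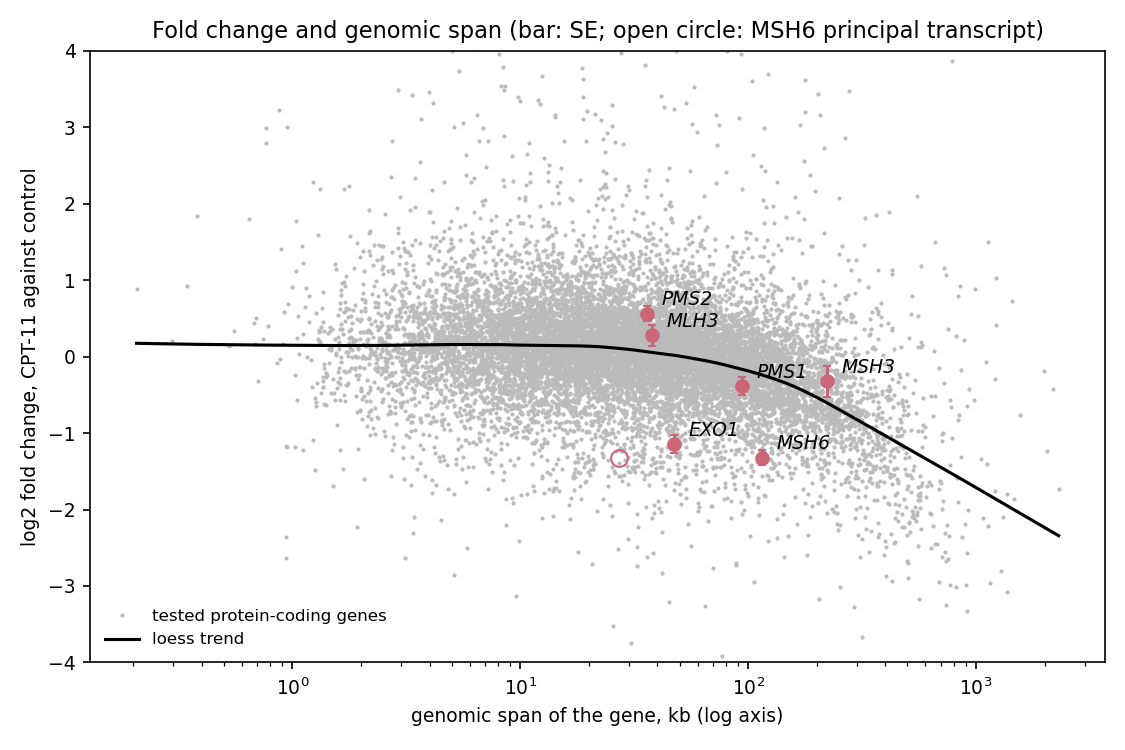
Log2 fold change (CPT-11 against control) of tested protein-coding genes against genomic span (log axis, kilobases), with the smoothed trend as a line, the 6 genes named with their SE and an open circle for the span of the MSH6 principal transcript; 34 genes lie outside the plotted range. MSH6 and EXO1 lie far below the trend, PMS2 above it, and MSH3 lies above the trend at its span.

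The genes whose profiles over the 6 libraries were nearest to each member were taken from the 10793 protein-coding genes that averaged at least 100 normalized counts, by Euclidean distance of log2 values from the control mean. MSH6 was nearest to PAM (0.077) and ZDHHC2 (0.095), and EXO1 to PHLDB2 (0.064) and LBR (0.11). PMS2 was nearest to CPEB4 (0.042) and HEATR3 (0.076), and PMS1 to USP3 (0.080) and PDIK1L (0.11). MLH3 was nearest to TTC1 (0.11) and THAP6 (0.12), and MSH3, at its low depth, only reached C17orf51 (0.20) and FBXL2 (0.20). No gene of mismatch repair was among them, which is not read as a result, since only 2 of the 10793 genes were kept for each member. MSH3 averaged below 100 and could not be among them.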

How the data were processed

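RNA sequencing covered 6 HCT116 libraries, 3 per group by their labels, although the series text speaks of duplicates. The build GRCh38 and the tools HISAT2 2.1.0, featureCounts 1.6.2 and DESeq2 1.22.1 stand, with fastp 0.19.3 and edgeR 3.24.3, in the submitters' processing notes, which tie no tool to a value. The authors deposited a normalized signal per gene and library, here called the normalized count; 100% of values were whole reads, within 0.001 read, divided by 1 size factor per library. For each gene there is also the authors' own log2 fold change, p-value and adjusted p-value, per the file headers. Strandedness and the counting of shared reads are stated nowhere in these sources.

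The 6 genes and the partner lists were chosen with earlier results of these data known, so their counts are descriptions. The 16239 genes that averaged at least 10 normalized counts were fitted with limma 3.58.1 in R 4.3.3, with a mean-variance trend on log2(normalized count + 1), and p-values were adjusted by Benjamini-Hochberg over all of them. The added 1 makes fold changes of low genes smaller. Ratios within libraries were tested by exact permutation. The fit was also run on simulated counts, scaled by library totals and with a far smaller share of genes changed than here. That run is not used as support for any result. Gene positions equal those of GENCODE 29 for 30560 of 30560 genes, and its exons gave lengths and overlaps; the principal transcript is the annotation's main coding transcript. The span trend was a lowess curve over 0.3 of the genes (statsmodels 0.14.6), and genes of like span lay within 0.1 on a log10 scale. Alternatives changed the pseudocount, filter, scaling, tool (edgeR 4.0.16 or DESeq2 1.42.0 on the recovered counts), replicate block, single libraries and the span trend.

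Named by rule were the 6 genes, PCNA, the 3 most changed genes of each list, genes overlapping a member (left out where no exonic base is shared) or starting within 1000 bases of its start, rows named as copies of a member, and the 2 nearest profiles. Other names were chosen after their values were seen. A few genes and sequences are not reported here. Library totals limit precision to counting error at least, and no source used here mentions molecular identifiers.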

Additional observations from a re-analysis of the deposited data

How the results depend on the processing

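MSH6, EXO1 and PMS2 passed the test in the same direction under all 18 alternatives that give a p, and MSH3 passed in 0 of 18; PMS1 passed in 15 and MLH3 in 4. The number of the 6 genes called higher was 2 with library totals without mitochondrial genes and 2 without both libraries numbered 1, both chosen after seeing the data, since MLH3 then passed; it ran from 1 to 2 when 1 library was left out. Those called lower ran from 2 to 3, and genes called over the whole table from 3473 to 4333 lower and from 3240 to 4792 higher. The median of all tested genes was at most 0.092 on the log2 scale in every scaling. POLE3, never called, was at 0.041 with library totals without mitochondrial genes, from -0.086 to 0.0085 when 1 library was left out (above 0 without control 2 or CPT-11 library 1), and at 0.00087 without both libraries numbered 1; the cause was not tested. With the span trend taken off, MGMT went to 0.063 and C17orf51 to 0.034, and MSH3 to 0.28, by construction of the subtraction.

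The labels do not say that same-numbered libraries are pairs, so the main test did not treat them as pairs. Their deviations from the group means had correlations of -0.23, -0.01 and -0.10 for the numbers 1, 2 and 3. With the number as a replicate block, 3503 genes were lower and 3309 higher, and the 6 genes kept 3 lower and 1 higher, with PMS1 at an adjusted p of 0.0434. ORMDL1 (adjusted p = 0.110), FAN1 (0.0613) and POLE4 (0.0552) no longer passed with the block. RNASEH2A and PMS2P10 gave no value under the stricter filter on low values. MSH3, at 67 to 103 reads per library, is limited by depth more than the other 5 genes. Sequence shared with transcripts of other genes limits the values of PMS2, MSH6 and MSH3. It took up 17.4%, 19.0% and 5.48% of the 100-base windows of their principal transcripts.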
